A study of Mus musculus with 24 samples.

Results

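Quinones, carbonyls and epoxides are reactive groups that arise from drugs, plant compounds and oxidized lipids, and the liver carries enzymes that reduce, hydrolyse or oxidize them to less reactive products. The levels of 10 genes of this kind were followed in mouse liver: the quinone reductase Nqo1, the carbonyl reductases Cbr1 and Cbr3, the aldehyde reductase Akr1a1, the microsomal epoxide hydrolase Ephx1, the aldehyde oxidases Aox1 and Aox3, and the aldehyde dehydrogenases Aldh1a1, Aldh1a7 and Aldh3a2. They were chosen by gene name, with earlier results of these data known, and all 10 are among the 15160 genes listed. All 10 also passed the filter on low counts, as did 13336 genes in all.

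The mice were males of the C57BL/6 background, either homozygous for a floxed Nfe2l2 allele (Nfe2l2 fl/fl, called WT) or littermates that carried the same floxed alleles and 1 copy of Alb-cre (Nfe2l2 fl/(Alb), called NRF2 KO). The albumin promoter drives Cre mainly in hepatocytes, so most other cells of the liver are taken to keep the gene, which was not tested here. Each genotype received a control diet (Con, 0.86% methionine) or a methionine-restricted diet (MR, 0.17% methionine) for 8 weeks from 8 weeks of age, with a 4 h fast before the liver was taken. The study's methods place calorimetry and a period of re-equilibration between those 8 weeks and the tissue harvest. The comparisons below use WT Con (n = 5), WT MR (n = 5), NRF2 KO Con (n = 6) and NRF2 KO MR (n = 6), without the mice WT_CON_7604 and WT_MR_7612, which the study set aside as outliers. The labels give the age as 5 months and name no batch.

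NRF2, the protein made from Nfe2l2, is a transcription factor that is held by KEAP1 in the cytoplasm and destroyed until electrophiles or oxidants modify KEAP1. It then enters the nucleus, pairs with a small MAF protein and binds antioxidant response elements near genes of detoxification and redox balance. Nqo1 is the most widely used marker of this response, and Ephx1, Cbr1, Cbr3 and the aldehyde oxidases are also known among its targets in rodents. The comparisons therefore ask how these enzymes respond to MR, how they depend on hepatocyte NRF2 on either diet, and whether the response to MR differs between the genotypes.

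The promoters of Nqo1, Cbr1, Ephx1 and Aox1, which MR raised in WT and which were lower in NRF2 KO on MR, are printed here from RefSeq (GRCm38.p6), each from 250 bases before to 50 bases after the start site, on the strand of the gene. Cbr3 and Akr1a1 were called in both comparisons as well, in the same directions, and are not printed. Capitals mark the xenobiotic response element core GCGTG on either strand, the letters that the aryl hydrocarbon receptor binds.
Nqo1: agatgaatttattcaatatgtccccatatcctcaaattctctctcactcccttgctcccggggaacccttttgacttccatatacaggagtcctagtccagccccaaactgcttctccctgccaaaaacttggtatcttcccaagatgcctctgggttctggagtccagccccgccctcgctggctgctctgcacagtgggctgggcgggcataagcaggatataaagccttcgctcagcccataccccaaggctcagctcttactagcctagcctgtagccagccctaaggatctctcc
Cbr1: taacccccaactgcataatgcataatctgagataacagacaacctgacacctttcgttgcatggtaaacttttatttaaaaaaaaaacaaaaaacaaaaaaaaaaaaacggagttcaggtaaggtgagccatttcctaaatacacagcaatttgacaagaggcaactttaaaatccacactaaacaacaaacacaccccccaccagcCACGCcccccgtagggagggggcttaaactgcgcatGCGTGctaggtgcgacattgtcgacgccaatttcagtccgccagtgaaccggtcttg
Ephx1: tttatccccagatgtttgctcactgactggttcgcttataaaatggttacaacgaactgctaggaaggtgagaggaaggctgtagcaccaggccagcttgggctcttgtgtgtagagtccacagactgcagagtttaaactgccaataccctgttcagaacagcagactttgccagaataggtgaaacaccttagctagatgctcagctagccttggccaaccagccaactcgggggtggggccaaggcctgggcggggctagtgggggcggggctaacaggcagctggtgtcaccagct
Aox1: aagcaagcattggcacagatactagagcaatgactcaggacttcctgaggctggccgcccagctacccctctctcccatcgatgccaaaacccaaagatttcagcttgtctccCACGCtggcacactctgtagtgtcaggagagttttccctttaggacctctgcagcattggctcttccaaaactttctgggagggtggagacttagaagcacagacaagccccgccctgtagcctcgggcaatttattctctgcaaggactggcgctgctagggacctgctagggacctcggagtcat
They lie at chr8:107403156-107403455 (minus strand), chr16:93607587-93607886 (plus strand), chr1:181017520-181017819 (minus strand) and chr1:58029719-58030018 (plus strand). The windows of Cbr1 and Ephx1 lie inside the gene positions given below, downstream of their 5′ ends, and the stretch around those ends was not searched. The antioxidant response element core TGACNNNGC was searched on both strands and was in 0 of the 10 members' windows, against 12.4% of 32851 promoters of the same length. The letters GCGTG were in 4 members, Cbr1, Aox1, Aox3 and Aldh3a2, against 32.4% of all promoters. Cbr1 held them at 2 places, starting at -43 and -7 from the start site, and Aox1 at -137. The ATF4 composite element TGATGNAA was in 0 members and in 3.97% of all promoters. These are matches of letters in a short window, and elements farther from the start site were not searched.

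The libraries were 3′ end libraries, in which a count reports reads near the end of the transcript. Levels are given as CPM, the read count of a gene relative to the library's size after TMM scaling, and total counts on genes ran from 6197291 to 22068338 over the 22 mice. Since a 3′ library gives 1 read position per transcript, no level was divided by gene length, and levels are compared between groups for 1 gene and not between genes. Log2 fold changes, their standard errors (SE) and adjusted p-values come from edgeR's quasi-likelihood test over all 13336 genes, and a gene was called at an adjusted p under 0.05. In bulk liver, fewer cells of a type and less RNA per cell cannot be told apart.

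Reads of the targeted gene, Nfe2l2 (chr2:75675513-75704641, minus strand, GRCm38), were higher, not lower, in NRF2 KO. WT MR livers lay between 94.0 and 107 CPM and NRF2 KO MR livers between 202 and 249 CPM (exact two-sided permutation p = 0.0022, the smallest the design allows). The deletion removes a stretch of exon 5, and the sources used here do not say whether the counted 3′ reads lie inside it, so these reads do not test the deletion. The study's own measure of it was PCR with primers that take in the excised stretch. In WT Con, 4 mice had 106, 117, 118 and 125 CPM. The fifth WT Con liver, the library labelled WT_CON_7607, stood apart with 324 CPM, a value among those of NRF2 KO Con (228 to 339 CPM). The study's methods say that all mice were genotyped by PCR of hepatic Nfe2l2 mRNA, and whether this library carries the right label was not tested, so the WT Con values that include it are uncertain to that extent.

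The same library was the lowest of the WT Con group for 8 of the 10 enzymes, and for 7 of the 10 its level was between the lowest and the highest NRF2 KO Con mouse. The shares of all genes with such values were not taken. For Cbr1, Aldh1a7 and Aldh3a2, which are among the 7, other WT Con mice also lay in the NRF2 KO Con range. The library's Nqo1 and Cbr3 lay above all NRF2 KO Con mice and its Aldh1a1 below all of them. Its Aox1 level was 9.46 CPM beside 40.2 ± 14.3 CPM in the other WT Con mice (SD, n = 4), which is 23.6% of their mean. Its Nqo1 level of 1.59 CPM was 32.1% of theirs, its Aox3 level of 102 CPM was 34.8%, and its Ephx1 level of 104 CPM was 45.4%. Cbr3 and Aldh3a2 were the exceptions: at 1.88 CPM its Cbr3 lay among the other WT Con mice, and at 189 CPM its Aldh3a2 was the highest of them. Calls of the members in the main fit that rest on WT Con are given below with and without it. Most other values that rest on WT Con, among them those with the clock score and those of related enzymes, are given only with it.

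**Figure D1:**
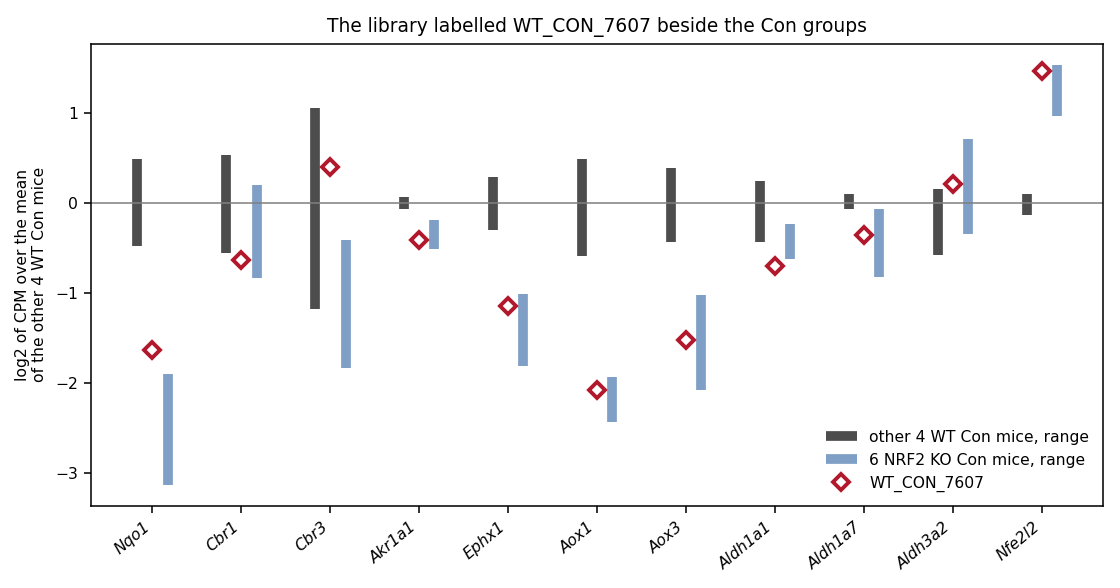
Log2 ratio of CPM to the mean of the other 4 WT Con mice for the 10 enzymes and Nfe2l2 (y axis), with the range of those 4 mice (dark bars), the range over 6 NRF2 KO Con mice (light bars) and the library labelled WT_CON_7607 (diamonds). The diamond lies below the dark bar for 8 enzymes and inside the light bar for 7 enzymes and for Nfe2l2.

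**Figure D2:**
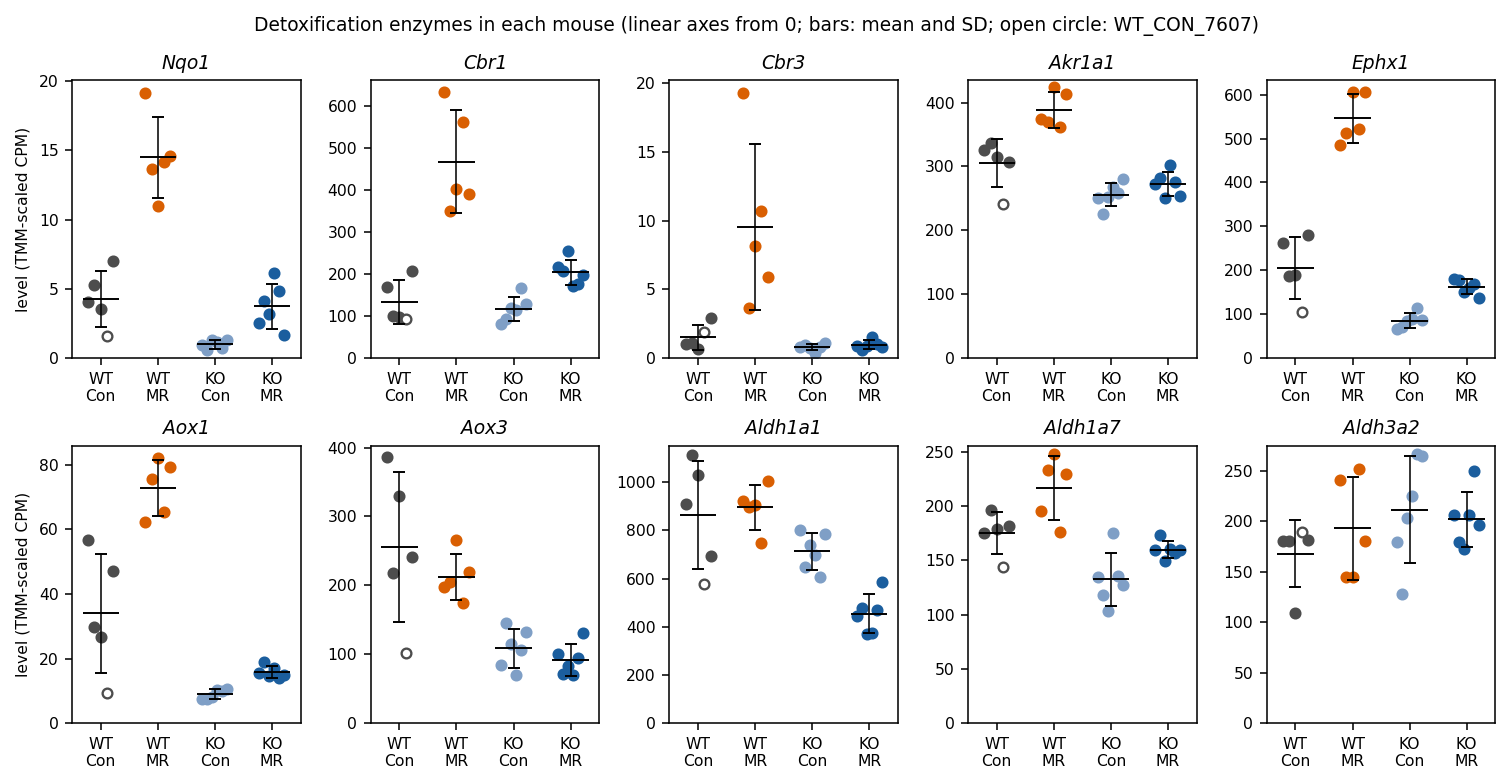
Level of each enzyme (TMM-scaled CPM, linear axes from 0) in each of the 22 mice by group, with the group mean and SD as black bars and the library labelled WT_CON_7607 as an open circle. For Nqo1, Cbr1, Cbr3, Akr1a1, Ephx1 and Aox1, every WT MR mouse lies above every WT Con mouse, and for every enzyme but Aldh3a2 the NRF2 KO MR mice lie below the WT MR mice.

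In WT liver, MR raised 6 of the 10 enzymes and lowered none. Those called were Nqo1, Cbr1, Cbr3, Akr1a1, Ephx1 and Aox1, and Aox3, Aldh1a1, Aldh1a7 and Aldh3a2 were not called. Over all genes 13.8% were called in this comparison, 922 higher and 921 lower (1434 and 526 with library size only). The median log2 fold change of the 10 members was 0.72, and that of all genes was -0.01. The groups did not overlap for the 6 members called, and for 9.32% of all genes; without the library labelled WT_CON_7607 these were 6 members and 11.2%. All 6 calls held without that library, with log2 fold changes from 0.28 (Akr1a1) to 2.67 (Cbr3). With the clock score described below in the model, 4 of the 6 held, and Nqo1 (1.36, adjusted p = 0.096) and Cbr3 (1.78, adjusted p = 0.070, edgeR) did not.

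In NRF2 KO liver, MR raised 3 enzymes, Nqo1, Cbr1 and Ephx1, and lowered Aldh1a1. Over all genes 12.6% were called. The median log2 fold change was 0.30 over the members and -0.00 over all genes. The groups did not overlap for 5 members, the 4 called and Aox1, and for 5.45% of all genes. When counts were scaled by library size only, which moved the median of all genes by 0.16, 7 members were called: Akr1a1 (0.25), Aox1 (0.99) and Aldh1a7 (0.43) were then called higher as well.

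In NRF2 KO liver, 5 of the 10 enzymes were lower than in WT on Con and 9 of the 10 on MR, and none was higher. With the clock score described below in the model, these counts were 0 and 6. On Con, Nqo1, Ephx1, Aox1, Aox3 and Aldh1a7 were called, where 2.07% of all genes were called. On MR, every enzyme but Aldh3a2 was called, where 1.93% of all genes were called. The median log2 fold change of the members was -0.69 on Con and -1.20 on MR, and that of all genes was -0.00 and 0.00. On MR the groups did not overlap for the 9 enzymes called and for 4.6% of all genes. On Con they did not overlap for Nqo1 alone among the members and for 1.83% of all genes. Without the library labelled WT_CON_7607, they did not overlap on Con for 5 members (Nqo1, Akr1a1, Ephx1, Aox1 and Aox3) and for 3.47% of all genes, and Akr1a1 was called as well (log2 fold change -0.33, adjusted p = 0.015, edgeR). That library was the lowest of WT Con for each of these 5 members. Leaving it out therefore parts the groups by construction, and these values are not separate support for a genotype difference.

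Averaged over both genotypes, MR called 8 members, 7 higher and Aldh1a1 lower, where 27.4% of all genes were called. The call of Aldh1a1 (-0.30, adjusted p = 0.026, edgeR) was lost without WT_CON_7603, WT_CON_7605 or WT_MR_7615, with library size only (-0.16), with all 24 mice (-0.27) and with the clock score (-0.21). That of Cbr3 (1.46) was lost with all 24 mice (1.28, adjusted p = 0.069, and 1.31, adjusted p = 0.061, with quality weights) and with the clock score (0.97, adjusted p = 0.098, edgeR), so that 6 members were called with all 24 mice and 6 with the clock score. Averaged over both diets, 9 members were lower in NRF2 KO, where 5.45% of all genes were called. Of these 9, 3 were called with the clock score in the model, Nqo1 (-2.40), Cbr3 (-2.94) and Ephx1 (-1.37). Without the library labelled WT_CON_7607, 8 members were called for MR averaged over genotypes and 9 for NRF2 KO averaged over diets. The comparisons share groups of mice with each other, so their counts are not independent.

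**Figure D3:**
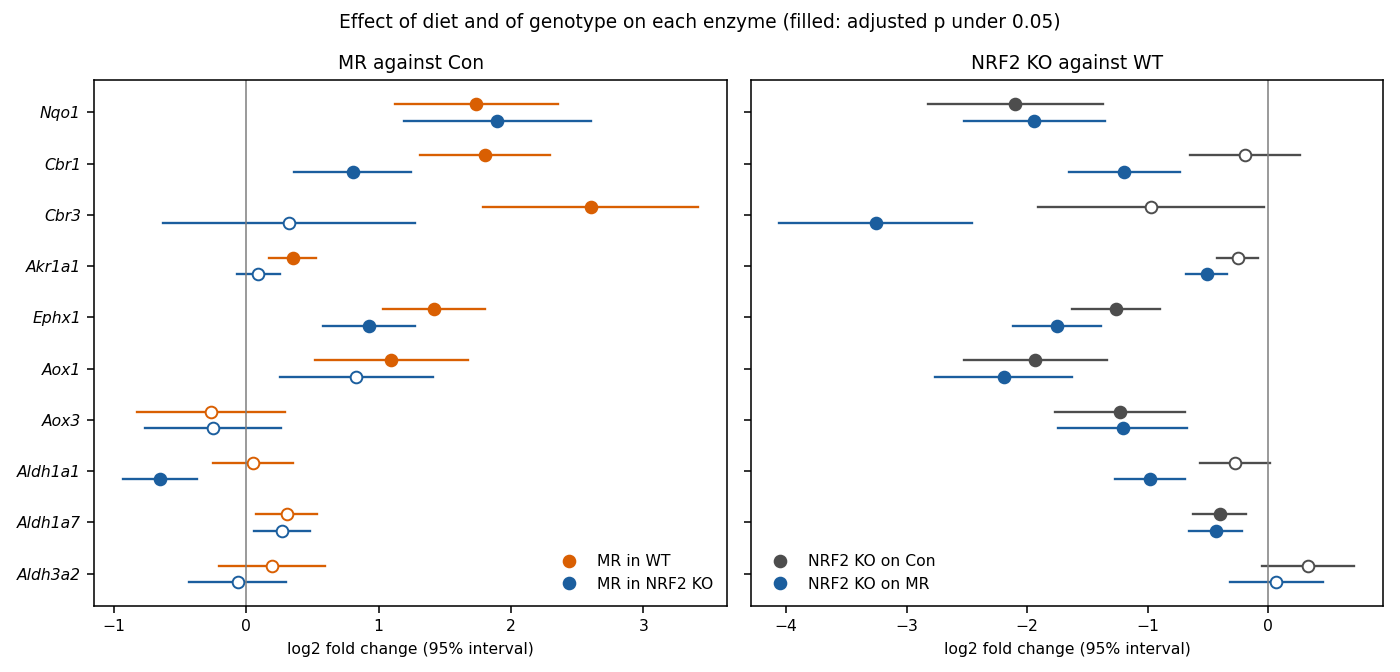
Log2 fold change with its 95% interval for each enzyme, for MR against Con in each genotype (left) and NRF2 KO against WT on each diet (right); filled points have an adjusted p under 0.05. On MR, 9 of the 10 genotype intervals lie below 0, and the diet intervals of Cbr1, Cbr3 and Aldh1a1 in WT and NRF2 KO do not overlap. The direct test of the interaction passed for none of these by edgeR (adjusted p = 0.41, 0.30 and 0.30).

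A clock measure moved with genotype and with diet. A score of 15 circadian clock genes, their first principal component (61.3% of their variance), was -4.66 ± 2.25 in WT Con, -0.22 ± 1.44 in WT MR, 1.55 ± 0.67 in NRF2 KO Con and 2.52 ± 0.45 in NRF2 KO MR (SD; n = 5, 5, 6 and 6). The genotypes did not overlap in this score on either diet (exact two-sided permutation p = 0.0022 on each, the smallest the design allows). MR raised it by 4.44 in WT (exact permutation p = 0.016) and by 0.97 in NRF2 KO (exact permutation p = 0.017). With the score in the model, 0 members and 0 genes were called for NRF2 KO on Con by edgeR, where 4 members and 1492 genes had an unadjusted p under 0.05. Nqo1 was then at -2.63, Aox1 at -1.32, Ephx1 at -1.07 and Aox3 at -0.54, with adjusted p from 0.24 to 0.72, and genotype and clock score cannot be told apart on Con. The genotypes did not overlap in the score on MR either, so a fit with it does not fully part genotype from clock score there. With the score, 6 of the 9 calls on MR held: Nqo1, Cbr1, Cbr3, Ephx1, Aox1 and Aldh1a1. The calls of Akr1a1 (-0.43, adjusted p = 0.055), Aox3 (-0.90, adjusted p = 0.24) and Aldh1a7 (-0.32, adjusted p = 0.36, edgeR) did not hold. The library labelled WT_CON_7607 had a clock score of -4.03, inside the range of the other WT Con mice.

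**Figure D4:**
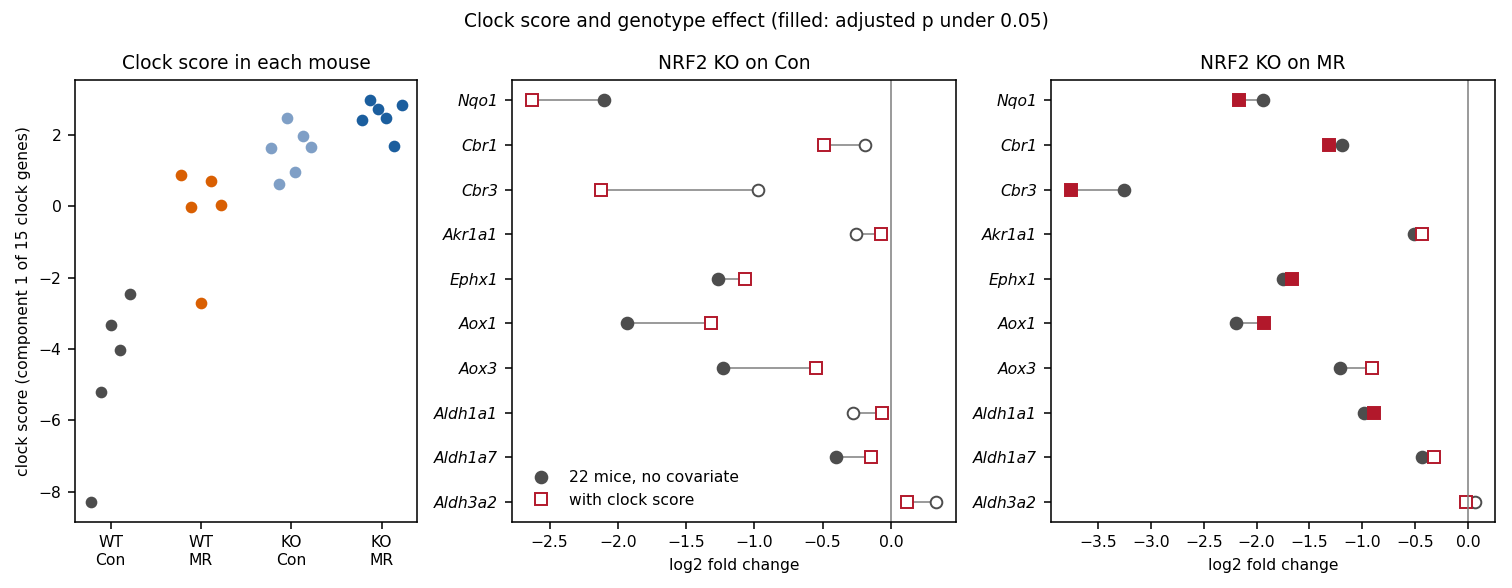
Left, the clock score of each mouse by group (first component of 15 clock genes, no unit); middle and right, the log2 fold change of each enzyme for NRF2 KO on Con and on MR, without (circles) and with (squares) the clock score as a covariate, filled at an adjusted p under 0.05. No square is filled on Con, and 6 are filled on MR, while the Nqo1, Cbr1 and Cbr3 values are farther from 0 with the score than without it.

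Nqo1 encodes NAD(P)H quinone dehydrogenase, which reduces quinones directly to hydroquinones and so bypasses semiquinone radicals. The gene lies at chr8:107388225-107403206 (minus strand, GRCm38, as are the gene positions below). Nqo1 was at 1.59, 3.55, 4.02, 5.25 and 6.97 CPM in the WT Con mice and at 11.0, 13.7, 14.2, 14.6 and 19.1 CPM in the WT MR mice. In NRF2 KO the lowest, median and highest values were 0.563, 1.03 and 1.33 CPM on Con and 1.70, 3.62 and 6.15 CPM on MR. All 6 NRF2 KO Con mice lay below every other mouse, and the NRF2 KO MR mice reached into the range of WT Con but not of WT MR.

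MR raised Nqo1 3.34-fold in WT (log2 fold change 1.74 ± 0.30, SE, adjusted p = 0.00058, edgeR) and 3.73-fold in NRF2 KO (1.90 ± 0.34, adjusted p = 0.0011). The difference between these responses was 0.16 with a 95% interval of -0.76 to 1.07. The level in NRF2 KO was 4.28-fold lower on Con (-2.10 ± 0.35, adjusted p = 0.0020) and 3.84-fold lower on MR (-1.94 ± 0.28, adjusted p = 0.00025, edgeR). Without the library labelled WT_CON_7607 the value in WT was 1.54 and that for genotype on Con was -2.30, both still called. The raw counts behind it were low, from 8 to 25 reads in NRF2 KO Con.

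Cbr1 encodes the main cytosolic carbonyl reductase, a short-chain dehydrogenase that uses NADPH to reduce quinones, prostaglandins and carbonyl-bearing drugs. It lies at chr16:93605853-93610505 (plus strand). The WT Con values were 92.5, 97.5, 99.2, 170 and 208 CPM and the WT MR values 349, 390, 402, 560 and 633 CPM. NRF2 KO Con ran from 80.7 to 166 CPM with a median of 116 CPM, and NRF2 KO MR from 171 to 255 CPM with a median of 203 CPM. The Con groups of both genotypes overlapped over most of their range, and the NRF2 KO MR mice lay above their Con group but below all WT MR mice.

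MR raised Cbr1 3.50-fold in WT (1.81 ± 0.24, adjusted p = 5.9e-05, edgeR) and 1.75-fold in NRF2 KO (0.80 ± 0.21, adjusted p = 0.016). The difference between the responses was -1.0 (95% interval -1.65 to -0.35), with an adjusted p of 0.41 that did not pass (edgeR). On Con the genotypes differed by -0.19 (95% interval -0.65 to 0.27), which was not called, while on MR NRF2 KO was 2.29-fold lower (-1.19 ± 0.22, adjusted p = 0.0036, edgeR).

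Cbr3 is the neighbouring paralog at chr16:93683215-93690990 (plus strand), whose product reduces a narrower set of carbonyls. Its reads were few, 6 to 16 in the NRF2 KO Con mice. WT Con mice had 0.626, 1.02, 1.06, 1.88 and 2.94 CPM, and WT MR mice 3.64, 5.87, 8.13, 10.7 and 19.2 CPM. NRF2 KO Con ran from 0.397 to 1.07 CPM (median 0.823) and NRF2 KO MR from 0.618 to 1.54 CPM (median 0.889). The WT MR mice stood above all other mice, and the NRF2 KO groups overlapped each other.

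MR raised Cbr3 6.08-fold in WT (2.60 ± 0.39, adjusted p = 0.00017, edgeR), and in NRF2 KO the log2 fold change was 0.32 (95% interval -0.63 to 1.28), not called. On MR, NRF2 KO was 9.55-fold lower (-3.25 ± 0.39, adjusted p = 1.8e-05), the widest genotype difference among the 10 members. On Con the difference was -0.98 ± 0.45 (adjusted p = 0.33, edgeR), not called. The difference between the MR responses was -2.28 (95% interval -3.55 to -1.01), with an adjusted p of 0.30 by edgeR. DESeq2 gave -2.33 with an adjusted p of 0.020, the only member called for the interaction by any alternative. Within the last 500 bases of their transcripts, 1 of 902 windows of 50 bases of Cbr1 was also in Cbr3 and 0 of 451 of Cbr3 in Cbr1.

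Akr1a1 encodes aldehyde reductase of the aldo-keto reductase family, which turns aldehydes and sugar-derived carbonyls into alcohols with NADPH and takes part in ascorbate synthesis in mice. It lies at chr4:116636510-116651680 (minus strand). WT Con mice had 241, 307, 315, 326 and 336 CPM and WT MR mice 362, 370, 375, 413 and 425 CPM. NRF2 KO Con ran from 226 to 281 CPM (median 255) and NRF2 KO MR from 251 to 302 CPM (median 274). The NRF2 KO groups overlapped, and the WT MR mice lay above all others. MR raised Akr1a1 1.28-fold in WT (0.35 ± 0.09, adjusted p = 0.0083, edgeR), and in NRF2 KO the value was 0.09 (95% interval -0.07 to 0.25). NRF2 KO was 1.43-fold lower on MR (-0.51 ± 0.08, adjusted p = 0.00050), and on Con the difference was -0.25 (95% interval -0.42 to -0.08, adjusted p = 0.12, edgeR), called only without the library labelled WT_CON_7607 and by DESeq2 (adjusted p = 0.049).

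Ephx1 encodes microsomal epoxide hydrolase, which adds water to epoxides that cytochrome P450 enzymes make from aromatic compounds. It lies at chr1:180976210-181020904 (minus strand) and overlaps Gm36961 on the same strand near its 3′ end, a gene that the count table does not list. WT Con mice had 104, 187, 189, 261 and 281 CPM, and WT MR mice 486, 512, 522, 605 and 605 CPM. NRF2 KO Con ran from 65.5 to 114 CPM (median 86.1) and NRF2 KO MR from 136 to 179 CPM (median 164). The WT MR mice lay above all others and the NRF2 KO Con mice below NRF2 KO MR, and the WT Con mouse at 104 CPM, among the NRF2 KO Con values, was the library labelled WT_CON_7607.

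MR raised Ephx1 2.67-fold in WT (1.42 ± 0.19, adjusted p = 4.7e-05, edgeR) and 1.90-fold in NRF2 KO (0.93 ± 0.17, adjusted p = 0.0011). The difference was -0.49 (95% interval -1.0 to 0.03). NRF2 KO was 2.40-fold lower on Con (-1.26 ± 0.18, adjusted p = 0.00053) and 3.37-fold lower on MR (-1.75 ± 0.18, adjusted p = 2.2e-06, edgeR). Without the library labelled WT_CON_7607 the genotype value on Con was -1.43 and the MR value in WT 1.25, both called.

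Aox1 and Aox3 encode aldehyde oxidases, molybdenum enzymes that oxidize aldehydes and nitrogen heterocycles of drugs, and lie next to each other at chr1:58029931-58106413 and chr1:58113130-58200698 (both plus strand). The library labelled WT_CON_7607 is the lowest of the WT Con values of both. Aox1 was at 9.46, 26.8, 29.8, 47.3 and 56.7 CPM in WT Con and at 62.2, 65.4, 75.5, 79.2 and 82.1 CPM in WT MR. It ran from 7.39 to 10.5 CPM in NRF2 KO Con (median 9.08) and from 14.1 to 19 CPM in NRF2 KO MR (median 15.3). The spread within WT Con was wide, while each NRF2 KO group was narrow and separate from the other.

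MR raised Aox1 2.14-fold in WT (1.10 ± 0.28, adjusted p = 0.013, edgeR). In NRF2 KO the value was 0.83 ± 0.28 with an adjusted p of 0.054, just outside the threshold although the groups did not overlap. Of 10 alternatives 7 called it, with log2 fold changes from 0.83 to 0.99, among them DESeq2 (adjusted p = 0.0082), the fit of only the NRF2 KO groups (0.00029, edgeR) and the fit with the clock score (0.035, edgeR). Of 22 fits without 1 mouse each, it was called in 3, those without WT_CON_7602, WT_CON_7608 or the library labelled WT_CON_7607. NRF2 KO was 3.81-fold lower on Con (-1.93 ± 0.28, adjusted p = 0.00082) and 4.58-fold lower on MR (-2.20 ± 0.27, adjusted p = 6.0e-05, edgeR). Without that library the values were 0.86 for MR in WT and -2.17 for genotype on Con, both called. In a fit of only the WT groups the MR call was lost (adjusted p = 0.11, edgeR).

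Aox3 did not rise with MR. WT Con mice had 102, 218, 242, 330 and 387 CPM, and WT MR mice 175, 197, 205, 219 and 266 CPM. NRF2 KO ran from 69.6 to 145 CPM on Con (median 111) and from 70.3 to 132 CPM on MR (median 88.8). The MR value was -0.27 in WT (95% interval -0.83 to 0.29) and -0.25 in NRF2 KO (-0.76 to 0.27), neither called. NRF2 KO was 2.35-fold lower on Con (-1.23 ± 0.26, adjusted p = 0.013) and 2.31-fold lower on MR (-1.21 ± 0.26, adjusted p = 0.013, edgeR). The genotype value on Con was -1.43 when that outlying WT Con library was left out, and in a fit of only the Con groups the call was lost (adjusted p = 0.10, edgeR). Aox1 and Aox3 were both called lower in NRF2 KO on either diet, and MR in WT called Aox1 and not Aox3, a difference that was not tested. No window of 50 bases was shared between their annotated transcripts.

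Aldh1a1 and Aldh1a7 encode closely related cytosolic aldehyde dehydrogenases that oxidize aldehydes, among them retinal for Aldh1a1, and lie near each other at chr19:20492715-20643465 (plus strand) and chr19:20692953-20727562 (minus strand). Aldh1a1 was at 579, 694, 911, 1028 and 1114 CPM in WT Con and at 748, 899, 907, 920 and 1005 CPM in WT MR. NRF2 KO ran from 609 to 801 CPM on Con (median 718) and from 371 to 588 CPM on MR (median 458). The NRF2 KO MR mice lay below all NRF2 KO Con and all WT MR mice.

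Aldh1a1 was the only member that MR lowered in either genotype, and this in NRF2 KO, where it fell 1.57-fold (-0.65 ± 0.13, adjusted p = 0.0026, edgeR). In WT the value was 0.05 (95% interval -0.25 to 0.35). The difference between the responses was -0.70 (95% interval -1.11 to -0.29, adjusted p = 0.30, edgeR), which did not pass. NRF2 KO was 1.97-fold lower on MR (-0.98 ± 0.14, adjusted p = 0.00011), and on Con the value was -0.28 (95% interval -0.57 to 0.01), not called.

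Aldh1a7 was at 144, 176, 179, 182 and 196 CPM in WT Con and at 177, 196, 229, 233 and 248 CPM in WT MR. In NRF2 KO it ran from 103 to 176 CPM on Con (median 131) and from 149 to 174 CPM on MR (median 160). The MR values were 0.31 ± 0.11 in WT and 0.27 ± 0.10 in NRF2 KO, with adjusted p-values of 0.071 and 0.083 (edgeR), and averaged over the genotypes MR raised it 1.22-fold (0.29 ± 0.08, adjusted p = 0.0064). NRF2 KO was 1.32-fold lower on Con (-0.40 ± 0.11, adjusted p = 0.047) and 1.35-fold lower on MR (-0.44 ± 0.11, adjusted p = 0.026, edgeR). Both calls were near the threshold. Of 22 fits without 1 mouse each, 17 gave no call on Con, while those without WT_MR_7609, WT_MR_7613, WT_MR_7615, KO_CON_7621 or the library labelled WT_CON_7607 did. On MR, 6 gave no call, those without WT_MR_7611, WT_MR_7613, WT_MR_7616, KO_MR_7625, KO_MR_7628 or KO_MR_7631.

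The promoters of this pair are shown because the genes share sequence there, while MR in NRF2 KO called Aldh1a1 lower and did not call Aldh1a7, a difference that was not tested. Capitals mark the longest run of identical bases, 65 bases from -94 to -30 in both.
Aldh1a1: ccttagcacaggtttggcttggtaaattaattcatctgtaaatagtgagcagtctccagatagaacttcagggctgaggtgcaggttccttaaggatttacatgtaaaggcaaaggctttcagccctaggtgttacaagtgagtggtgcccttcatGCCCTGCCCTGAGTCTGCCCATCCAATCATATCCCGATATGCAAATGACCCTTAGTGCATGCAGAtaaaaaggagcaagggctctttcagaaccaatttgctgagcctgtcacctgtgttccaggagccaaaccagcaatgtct
Aldh1a7: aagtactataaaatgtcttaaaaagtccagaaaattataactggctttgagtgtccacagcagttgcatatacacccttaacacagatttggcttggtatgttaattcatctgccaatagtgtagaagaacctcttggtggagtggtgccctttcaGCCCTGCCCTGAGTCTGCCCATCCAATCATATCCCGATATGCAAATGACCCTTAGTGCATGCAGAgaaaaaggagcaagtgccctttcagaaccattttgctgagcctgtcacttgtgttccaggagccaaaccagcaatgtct
They lie at chr19:20601718-20602017 (plus strand) and chr19:20727507-20727806 (minus strand) on GRCm38.p6, and 142 of their last 150 bases, 94.7%, were identical at equal distance from the start site. RefSeq gives Aldh1a1 a further start site upstream, which is not shown. Of the windows of 50 bases in the last 500 bases of the annotated Aldh1a1 transcripts, 74 of 905 were also in Aldh1a7, and 0 of 451 of Aldh1a7 were in Aldh1a1, so a part of the Aldh1a1 reads may not be assignable with certainty.

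Aldh3a2 encodes fatty aldehyde dehydrogenase of the endoplasmic reticulum, which oxidizes long-chain aldehydes of lipid breakdown, and lies at chr11:61223417-61267464 (minus strand). WT Con mice had 109, 180, 180, 182 and 189 CPM and WT MR mice 145, 145, 181, 241 and 252 CPM. NRF2 KO ran from 128 to 267 CPM on Con (median 214) and from 173 to 250 CPM on MR (median 201). All 4 groups overlapped. It was called in none of the 7 comparisons by edgeR, and the MR values were 0.20 in WT (95% interval -0.20 to 0.60) and -0.07 in NRF2 KO (-0.43 to 0.30).

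For the interaction of genotype and diet, 0 of the 10 members passed, where 0.045% of all genes did, 6 genes in all (edgeR). At an unadjusted p under 0.05, 4 members and 1008 of all genes passed. Those members were Cbr1, Cbr3, Akr1a1 and Aldh1a1, and each had a lower log2 fold change with MR in NRF2 KO than in WT. DESeq2 called 1 member, Cbr3, among 35 genes. The other intervals ran across 0, from -1.0 to 0.03 for Ephx1 and from -0.76 to 1.07 for Nqo1.

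Some members varied together from mouse to mouse. After the group means were taken out of the log2 CPM, Pearson's r over the 45 pairs ran from -0.48 to 0.90 with a median of 0.29, and 11 pairs were negative. Ephx1 and Aox1 had the closest pattern, with r = 0.90 over 22 mice, and Akr1a1 and Aox1 followed with r = 0.74. The library labelled WT_CON_7607, the lowest of WT Con for Ephx1, Aox1 and Akr1a1, was among these mice, and no r was taken without it. Cbr3 had the lowest values of all pairs, against Aldh1a7 (r = -0.48) and Aldh1a1 (r = -0.46). Over the 22 mice with group differences included, the gene most like Ephx1 and the gene most like Aox1 were the same, Gstm1 (r = 0.98 for each). Nqo1 was most like Creg1 and Gstm4 (r = 0.96 for each), Cbr1 like Blvrb and Mif (0.95 and 0.94), and Cbr3 like Abcc4 and Nrxn2 (0.90 and 0.89). Akr1a1 was most like Fth1 and Entpd5 (0.96 and 0.95), Aox3 like Hnf4aos and Lonp2 (0.89 and 0.88), Aldh1a1 like Mgst1 and Msra (0.93 and 0.92), Aldh1a7 like Ddc and Me1 (0.93 for each), and Aldh3a2 like Ube2e2 and Acadl (0.82 and 0.78). These values describe the same libraries, which share depth, scaling and group, and carry no test.

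Related enzymes of the same families, listed from general knowledge, were set beside the members. Of 83 listed, 67 were tested. MR called 10 higher and 5 lower in WT and 9 higher and 10 lower in NRF2 KO, and their median log2 fold changes were 0.03 and -0.03, near those of all genes. NRF2 KO called 0 higher and 2 lower on Con and 0 higher and 4 lower on MR, with medians of -0.03 and -0.06. Over all genes 13.8% and 12.6% were called for MR in WT and in NRF2 KO, and 2.07% and 1.93% for genotype on Con and on MR. For genotype, 6 of the 67 on Con and 22 on MR had an unadjusted p under 0.05 (edgeR), beside 1917 and 1851 of 13336 genes. For the interaction 0 of the 67 passed by edgeR or DESeq2, and 7 had an unadjusted p under 0.05. Averaged over the genotypes MR called 15 higher and 14 lower, and averaged over the diets NRF2 KO called 1 higher and 7 lower. When the clock score was in the model, edgeR called 5 of the 67 for the diet in WT livers and 20 in NRF2 KO livers. For genotype it called 0 on Con, 1 on MR (Akr7a5) and 0 averaged over the diets, where 7, 13 and 11 had an unadjusted p under 0.05 and DESeq2 without the score called 2, 7 and 11. Of the genotype calls of related enzymes given below, only that of Akr7a5 on MR held with the score.

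Among quinone and electron-transfer enzymes, 1 of 7 rose and 1 fell with MR in each genotype. Por, the reductase that feeds electrons to cytochrome P450, rose 2.50-fold in WT (1.32 ± 0.24, adjusted p = 0.0012, edgeR) and 2.19-fold in NRF2 KO (1.13 ± 0.22, adjusted p = 0.0021). Cyb5r3, the reductase of cytochrome b5, fell 1.60-fold in WT (-0.67 ± 0.12, adjusted p = 0.00050) and 1.47-fold in NRF2 KO (-0.55 ± 0.11, adjusted p = 0.0014, edgeR). For genotype 0 of the 7 were called on either diet by edgeR or DESeq2, with 0 and 1 at an unadjusted p under 0.05 on Con and on MR. With the clock score 0 of the 7 were called for MR in WT (1 at an unadjusted p under 0.05, edgeR), where Por was at 0.53 and Cyb5r3 at -0.53, and 2 were called in NRF2 KO.

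Among short-chain dehydrogenases, 1 of 18 rose and 2 fell with MR in WT, and 2 rose and 3 fell in NRF2 KO. Dhrs13 rose 1.51-fold in WT (0.60 ± 0.12, adjusted p = 0.0013) and 1.52-fold in NRF2 KO (0.60 ± 0.10, adjusted p = 0.00050, edgeR). Hsd17b10, a mitochondrial enzyme of branched amino acid and steroid oxidation, fell in both (-0.54 ± 0.15 and -0.44 ± 0.14), and with the clock score in neither (adjusted p = 0.20 and 0.051, edgeR). Rdh11, a retinal reductase, rose in NRF2 KO only at the edge of the threshold (0.68 ± 0.22, adjusted p = 0.050, edgeR). Dhrs9 was 3.10-fold lower in NRF2 KO on Con (-1.63 ± 0.37, adjusted p = 0.016, edgeR), with 4 to 18 reads per NRF2 KO Con mouse. Averaged over the diets Dcxr, L-xylulose reductase, was lower as well (-0.51 ± 0.13, adjusted p = 0.027, edgeR).

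Among aldo-keto reductases, the family of Akr1a1, 3 of 13 rose and 1 fell with MR in WT, and 3 rose and 2 fell in NRF2 KO. Akr1c19 rose 2.78-fold in WT (1.47 ± 0.24, adjusted p = 0.00046) and 2.16-fold in NRF2 KO (1.11 ± 0.22, adjusted p = 0.0024, edgeR). Akr1b7 had 0 to 20 reads per WT Con mouse and 12 to 98 per WT MR mouse, and 0 to 9 and 8 to 264 in NRF2 KO. It was called with MR in both genotypes (adjusted p = 0.020 and 0.00078, edgeR), in WT not with the clock score (adjusted p = 0.72), and its mean rose from 0.272 to 2.95 CPM in WT and from 0.213 to 6.10 CPM in NRF2 KO. Akr7a5, which reduces aflatoxin dialdehyde, was 1.56-fold lower in NRF2 KO on MR (-0.64 ± 0.11, adjusted p = 0.00066, edgeR) and fell with MR in NRF2 KO (-0.35 ± 0.10, adjusted p = 0.025). Averaged over the diets Akr1c14, a hydroxysteroid dehydrogenase, was lower in NRF2 KO (-0.49 ± 0.14, adjusted p = 0.046, edgeR).

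Of the other epoxide hydrolases, 2 of 3 in the table were tested. Ephx2, soluble epoxide hydrolase, fell with MR in NRF2 KO (-0.55 ± 0.13, adjusted p = 0.0085, edgeR), where Ephx1 rose. Lta4h, a leukotriene hydrolase, rose with MR in WT (0.35 ± 0.12, adjusted p = 0.048) and was 1.37-fold lower in NRF2 KO on MR (-0.45 ± 0.11, adjusted p = 0.032, edgeR). Neither Lta4h value was called with the clock score (0.36 and -0.45, adjusted p = 0.28 and 0.20, edgeR), nor with all 24 mice (0.27 and -0.35, adjusted p = 0.17 and 0.20).

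Of 9 tested genes for molybdenum enzymes and their cofactor, Mocos, the sulfurase that activates aldehyde oxidases and xanthine dehydrogenase, was lower in NRF2 KO on Con (1.38-fold, -0.46 ± 0.09, adjusted p = 0.0071) and on MR (1.34-fold, -0.42 ± 0.09, adjusted p = 0.013, edgeR), the diets on which Aox1 and Aox3 were lower as well. Both calls were lost with the clock score (-0.21 on Con and -0.30 on MR, adjusted p = 0.71 and 0.31, edgeR). Its mean was 54.3 ± 7.14 CPM in WT Con and 39.4 ± 3.29 CPM in NRF2 KO Con (SD, n = 5 and 6). Mocs2, of molybdopterin synthesis, rose with MR in NRF2 KO (0.28 ± 0.09, adjusted p = 0.046, edgeR). Averaged over the genotypes MR lowered Marc1, an amidoxime reductase (-0.27 ± 0.07, adjusted p = 0.0040), and Xdh, xanthine dehydrogenase (-0.25 ± 0.09, adjusted p = 0.039, edgeR).

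Of 14 other aldehyde dehydrogenases, 4 rose and 1 fell with MR in WT, and 2 rose and 3 fell in NRF2 KO. The largest rises were those of Aldh1l2 and Aldh18a1, a mitochondrial folate enzyme and an enzyme of proline synthesis that do not detoxify aldehydes. Aldh1l2 rose 18.1-fold in WT (4.17 ± 0.36, adjusted p = 3.7e-08) from 2 to 8 reads per WT Con mouse, and 10.2-fold in NRF2 KO (3.35 ± 0.32, adjusted p = 7.6e-07, edgeR) from 0 to 8 reads. Aldh18a1 rose 3.74-fold in WT (1.90 ± 0.36) and 2.83-fold in NRF2 KO (1.5 ± 0.33). Aldh5a1, succinate semialdehyde dehydrogenase, rose in WT (0.35 ± 0.09, adjusted p = 0.015) and was 1.33-fold lower in NRF2 KO on MR (-0.41 ± 0.09, adjusted p = 0.011, edgeR). Neither value was called with the clock score (0.49 and -0.32, adjusted p = 0.055 and 0.23, edgeR). Averaged over the diets Aldh1l1, a cytosolic folate enzyme, was lower in NRF2 KO (-0.38 ± 0.09, adjusted p = 0.0075, edgeR). Of 4 tested alcohol dehydrogenases, Adh1 was higher in NRF2 KO averaged over the diets (0.25 ± 0.07, adjusted p = 0.039, edgeR).

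**Figure D5:**
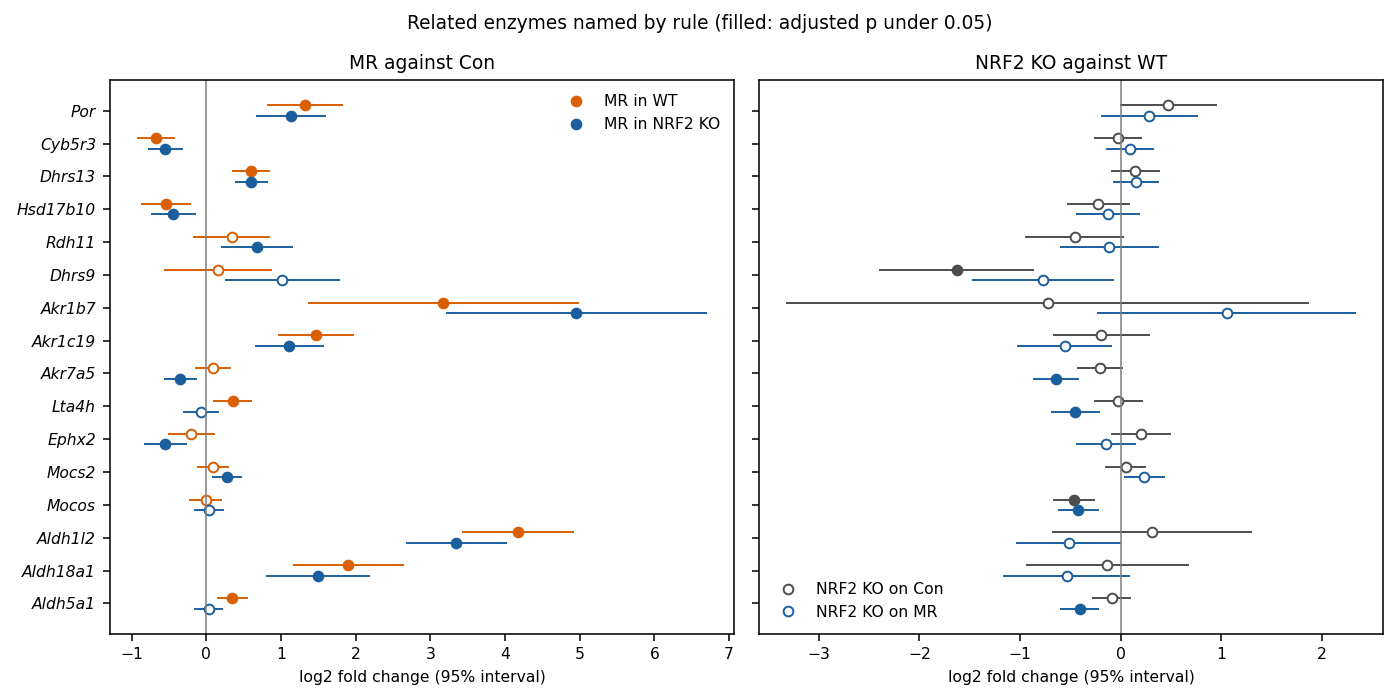
Log2 fold change with its 95% interval for 16 related enzymes named by rule, for MR against Con (left) and NRF2 KO against WT (right); filled points have an adjusted p under 0.05. The MR changes of Por, Cyb5r3, Akr1c19, Akr1b7, Aldh1l2 and Aldh18a1 are filled in both genotypes, and the genotype changes that are filled lie below 0.

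The libraries carried the markers of liver. All 8 hepatocyte markers, such as Alb and Apoa1, were present in the table, and their summed level ran from 86800 to 118000 CPM in WT Con, 76400 to 94800 CPM in WT MR, 112000 to 132000 CPM in NRF2 KO Con and 96100 to 120000 CPM in NRF2 KO MR. On MR this sum was higher in every NRF2 KO mouse than in every WT mouse, and 1 of the 8 was called higher. A sum weighs the most abundant markers most, and the part of hepatocyte content in the results was not tested. Of the markers of other cells, 1 lymphocyte gene (Cd79a) was not listed and none of the listed ones was at 0 in all mice. With MR, 6 of 10 Kupffer cell markers were called lower in WT and 4 in NRF2 KO, 4 of 7 stellate cell markers in WT and 3 in NRF2 KO, and 4 of 5 bile duct markers in WT and 1 in NRF2 KO, and their part in the results was not tested. The summed Kupffer markers ran from 496 to 651 CPM in WT Con and from 390 to 440 CPM in WT MR, and the summed bile duct markers from 49.0 to 72.6 CPM and from 20.9 to 28.3 CPM. For genotype, 1 bile duct marker was lower on Con, and 0 of 10 Kupffer markers were called on either diet by edgeR or DESeq2, with 0 at an unadjusted p under 0.05. Of 10 pericentral markers, 3 were lower with MR in WT and 5 in NRF2 KO, and of 8 endothelial markers 1 was higher with MR in NRF2 KO. Of 4 lymphocyte markers tested, 1 was lower with MR in WT, and of 9 periportal markers 0 were called within a diet or a genotype by edgeR, where DESeq2 called 1 (MR in NRF2 KO) and the unadjusted p was under 0.05 for at most 2.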

How the data were processed

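Liver RNA of 24 mice was sequenced as QuantSeq 3′ libraries, 1 per mouse, and 22 mice were used here. The count values are the raw reads per gene that the authors deposited, mapped to GRCm38 (mm10) per the labels. Mapping and counting ran in Lexogen's QuantSeq pipeline on the Bluebee platform, per the study's methods. The aligner inside it and the gene models are not given in the sources used here. The signal values deposited by the authors equal those counts after division by a size factor for each mouse, and they served only for 1 alternative. Gene positions and transcripts were taken from GENCODE M21 (GRCm38), and promoters from RefSeq.

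Differential expression was tested with edgeR (version 4.0.16, in R 4.3.3) on raw counts with TMM factors, edgeR's own expression filter, which removed 1824 genes, and robust quasi-likelihood F-tests on 4 group means. Benjamini-Hochberg adjustment ran over 13336 genes, with a threshold of 0.05. Log2 CPM used a prior count of 2. Standard errors were taken from the fold change and its F value. Exact permutation tests enumerated all splits of the mice of both groups. The model was tested on simulated data. Each mouse is 1 library, so p-values measure the spread between mice. No pair of libraries in a group agreed within sampling noise, and the closest pair had a chi-square of 7.66 per degree of freedom. Depth limits the precision of Nqo1 and Cbr3, which had the fewest reads of the members.

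The members, the lists and the clock score were chosen with earlier results of these data known. The members and Nfe2l2 are always named. A related enzyme is named when it is called, is among the 2 largest changes of its list in a comparison and averages at least 1 CPM, and the 2 genes with the highest Pearson correlation to a member are named with it. Alternatives were another scaling (DESeq2 size factors, or no factors beyond library size), another filter (any count, or at least 10 counts in each mouse), another tool (DESeq2 1.42.0, or limma 3.58.1 on log2 of the deposited signal plus 1), a fit of the compared groups alone, the full set of 24 mice with or without quality weights, the clock score as a covariate, and each mouse left out in turn. Plots were made in Python 3.11.15 (matplotlib 3.10.9).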

Additional observations from a re-analysis of the deposited data

Results flagged for a closer look

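In a test for a value far from the rest of its group (the gap to the nearest mouse as a share of the group's range, at the 95% level), 2 of 44 groups of the 10 enzymes and Nfe2l2 stood out, where chance gives about 1 in 20. Nfe2l2 in the library labelled WT_CON_7607, the highest of WT Con at 324 CPM, had a gap of 0.914 of the range. Aldh3a2 in WT_CON_7605, the lowest of WT Con at 109 CPM, had a gap of 0.887 of the range.

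For a part of the enzymes, the mice that were not used in the comparisons carried a signal above all used WT Con mice and above their own group, on the TMM scale of all 24 mice. Their other enzymes lay within or below the range of their own group. WT_MR_7612 had 33.2 CPM of Nqo1 (other WT MR mice 11.0 to 19.3), 874 CPM of Cbr1 (351 to 639) and 41.7 CPM of Cbr3 (3.65 to 19.4). WT_CON_7604 had 7.88 CPM of Nqo1 (other WT Con mice 1.60 to 7.04) and 11.6 CPM of Cbr3 (0.633 to 2.97).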

How the results depend on the processing

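No called or newly called value of a member turned its direction under any alternative. The reported fits called, for MR, 1843 genes in WT, 1677 in NRF2 KO and 3648 averaged over genotypes, and further 276 for NRF2 KO on Con, 258 on MR, 727 averaged over diets and 6 for the interaction. With the clock score as a covariate, members called fell from 5 to 0 for NRF2 KO on Con and from 9 to 3 averaged over diets, and genes called were 0 and 27, with 86 for NRF2 KO on MR, 676 for MR in WT, 2026 for MR averaged over genotypes and 2 for the interaction. With library size only, 7 members and 2785 genes were called for MR in NRF2 KO, 86.1% of them higher against 49.6% with TMM; this scaling moved the median of all genes by 0.16 there and by 0.12 averaged over genotypes, and raised the share called higher to 73.2% for MR in WT (50.0% with TMM), 79.7% averaged over genotypes (48.5%) and lowered it to 27.6% for NRF2 KO on Con (38.8%) and to 28.6% for the interaction (50.0%). DESeq2 called 451 genes for NRF2 KO on Con, 496 on MR, and 35 genes and 1 member for the interaction. With only the groups compared, 3 members and 99 genes were called for NRF2 KO on Con, where Aox3 and Aldh1a7 were lost, and 600 genes on MR. All 24 mice with quality weights gave 2693 genes for MR in NRF2 KO and 604 for NRF2 KO on MR. The causes were not tested.

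Leaving out 1 mouse gave 181 (without WT_CON_7603) to 314 genes (without the library labelled WT_CON_7607) for NRF2 KO on Con, and 3 (without WT_MR_7611, WT_MR_7616, KO_CON_7617, KO_CON_7618 or KO_MR_7625) to 12 genes (without the library labelled WT_CON_7607) for the interaction, where 0 members passed in any of the 22 fits (edgeR). Members called ran from 6 to 7 for MR in WT, 4 to 5 for MR in NRF2 KO, 4 to 6 for NRF2 KO on Con and 8 to 9 on MR. With at least 10 counts required in each mouse, Nqo1 and Cbr3 could not be tested and 7 members were called for NRF2 KO on MR. Over single members and alternatives, 2120 values kept their call, 52 lost it, 21 gained it and 3, uncalled values of Aox3 with the clock score, changed sign by more than the standard error.

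No paired analysis was possible because no replicate number is shared between groups and the labels do not name the litter of a mouse.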

Other observations

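The mice left out of the comparisons differed from their groups in both directions. On the TMM scale of all 24 mice, WT_MR_7612 lay below every other WT MR mouse in Aox3 (86.7 CPM, others 177 to 266), Ephx1 (473 CPM, others 490 to 610), Aox1 (59.4 CPM, others 62.8 to 82.3) and Aldh1a1 (694 CPM, others 756 to 1013). WT_CON_7604 lay below every other WT Con mouse in Aldh1a1 (466 CPM, others 584 to 1127) and within their range in Cbr1, Akr1a1, Ephx1, Aox1, Aox3, Aldh1a7 and Aldh3a2.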
